A study of Homo sapiens with 4 samples.

Results

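Granins, prohormone-processing enzymes and neuropeptides were examined in SK-N-SH cells, an established human neuroblastoma line, as a set of 10 genes out of the 57820 genes in the deposited table of transcript counts. The set holds 5 granins (*CHGA*, *CHGB*, *SCG2*, *SCG3* and *VGF*), the enzymes *PCSK1*, *PCSK2* and *CPE*, and the peptide precursors *NPY* and *GAL*, and each was found by its symbol in the table. By RNA-seq, cells given a lentivirus with the lncRNA *RP5-998N21.4* (OE) were set against cells given the vector without insert (vector control), with 2 libraries per condition. The sample titles call the control WT, whereas the treatment label and the methods of the study name the empty vector, which was followed. Expression in the lentivirus was driven by the EF1a promoter, and every library, control included, came from virus-transduced cells of this 1 line.

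Neuroendocrine cells store peptides in dense-core vesicles and release them on a signal. Granins are acidic proteins that help to form these vesicles and are also cut into peptides. The prohormone convertases cut precursors after pairs of basic residues, and carboxypeptidase E (*CPE*) then trims the basic residues that remain. Sympathetic neurons and chromaffin cells, the normal relatives of neuroblastoma cells, are rich in this machinery, and chromogranin A and neuropeptide Y are used as markers of it.

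Library totals ranged from 23785164 to 28307591 counts. The transgene served as the check of the labels: *RP5-998N21.4* had 32 and 33 counts with the vector and 2407 and 2808 with OE, although near-identical copies of the gene may share these reads. Levels are given as CPM, the count scaled to the TMM-normalized library size. Differences were tested with edgeR's quasi-likelihood test on all 20528 genes that passed a filter on low counts, with Benjamini-Hochberg adjustment over those genes. The thresholds of the study ask for a log2 fold change beyond 0.5 in either direction with an adjusted p under 0.01. There 0 of the 8 tested genes of the set were called, where 0% of all tested genes were. Even *RP5-998N21.4*, with a log2 fold change of 6.11 and an adjusted p of 0.0109, was not called. Before adjustment 5 of the 8 had p under 0.05, all higher in OE, against 10.1% of all tested genes that were higher and 10.7% that were lower. DESeq2 called 4 of them as higher, against 4.35% of all tested genes. With 2 libraries against 2, the smallest two-sided p of an exact permutation test for a single gene is 0.333. The labels do not say that the 2 libraries of a condition came from separate cultures, so that the p-values measure the spread between these libraries, which may be technical.

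The regulatory sequence printed here was chosen because 3 of the genes carry the same element close to their start. RefSeq promoters (GRCh38.p14, 250 bases before to 50 after the start) were matched by symbol for 7 of the 10 genes, and *CHGB*, *SCG2* and *GAL* had no entry. The cAMP response element (CRE), whose palindrome TGACGTCA reads the same on both strands and is bound by factors of the CREB family, was found in the promoters of *CHGA*, *VGF* and *PCSK1*. It was found in 1.85% of all 35116 promoters. The 110 bases before each start follow, 5′ to 3′ on the strand of the gene, with the CRE in capitals. *CHGA* is at chr14:92923040-92923149 on the plus strand, *VGF* at chr7:101165570-101165679 on the minus strand and *PCSK1* at chr5:96433249-96433358 on the minus strand.
CHGA: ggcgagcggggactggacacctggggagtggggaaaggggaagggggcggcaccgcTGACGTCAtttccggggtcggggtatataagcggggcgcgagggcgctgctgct
VGF: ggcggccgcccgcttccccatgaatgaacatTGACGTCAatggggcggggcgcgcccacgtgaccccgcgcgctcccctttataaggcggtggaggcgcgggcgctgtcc
PCSK1: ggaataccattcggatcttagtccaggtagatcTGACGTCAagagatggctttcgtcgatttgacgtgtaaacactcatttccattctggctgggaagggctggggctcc
The first base of the element lies 54 bases before the start in *CHGA*, 79 bases before it in *VGF* and 77 bases before it in *PCSK1*. A match is a description of letters and not of a bound site. *PCSK1* has a second RefSeq start without the element.

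*CHGA*, *CHGB*, *SCG3* and *VGF* were higher in both OE libraries than in both vector control libraries, by 2.62-fold, 1.89-fold, 2.05-fold and 1.45-fold. *SCG2*, the most abundant of the granins, was at nearly the same level in all 4 libraries. *CPE* was 1.24-fold higher in OE. In bulk RNA, more cells of a type and more RNA per cell cannot be told apart, nor can fewer cells and less RNA per cell. *NPY* had 19 to 28 counts and *PCSK1* at most 12 counts in a library, *GAL* had at most 11 counts in a library, and *PCSK2* had none. Of the 8 tested genes, 5 had both OE libraries above both vector control libraries and 0 had both below, against 27.8% and 27.6% of all tested genes. At p under 0.05 in edgeR's test before adjustment, 5 genes were higher and 0 lower, against 10.1% and 10.7% of all tested genes.

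**Figure D1:**
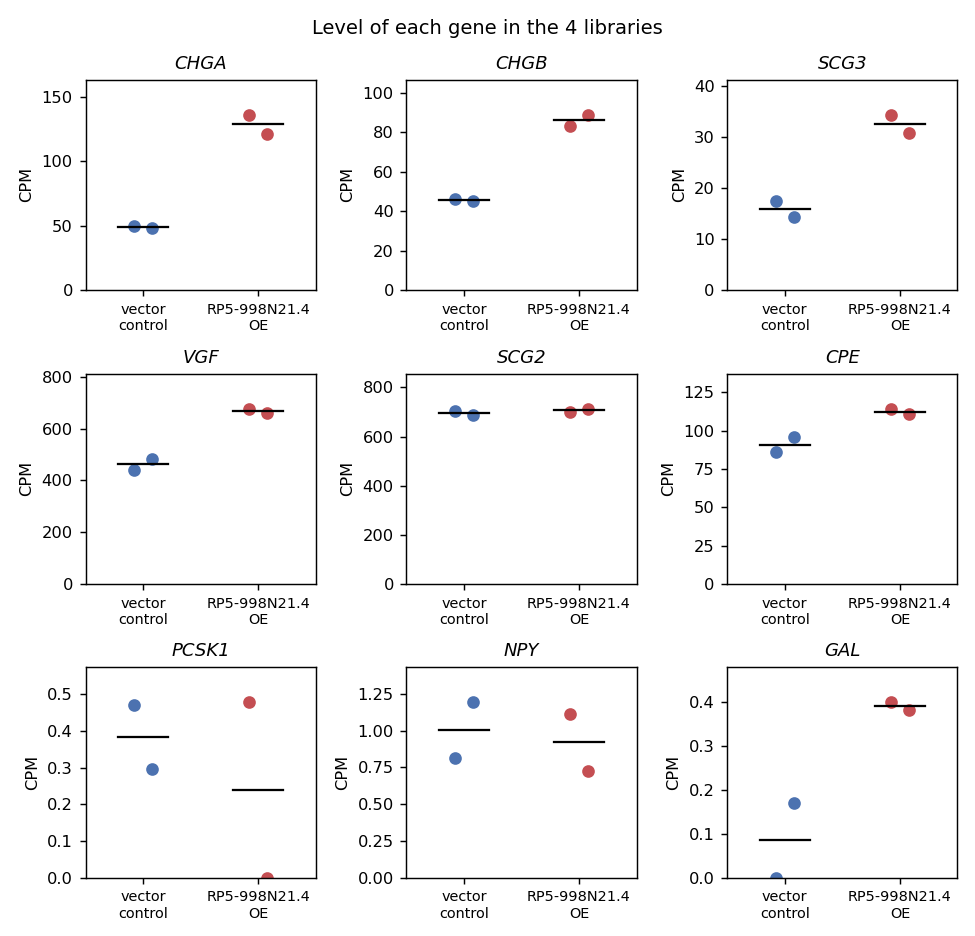
Level in CPM (vertical axes, each from 0) of 9 genes in the 2 vector control libraries (blue points) and the 2 RP5-998N21.4 OE libraries (red points), with the mean of each condition as a black line. CHGA, CHGB, SCG3, VGF and CPE lie higher in both OE libraries, SCG2 is between 686 and 714 CPM in all 4, and PCSK1, NPY and GAL reach at most 1.19 CPM.

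*CHGA* (ENSG00000100604.8) encodes chromogranin A, the founding member of the granins, and lies on chromosome 14 of hg19 from 93389495 to 93401630 on the plus strand. It had 1157 and 1141 counts with the vector and 3412 and 3512 with OE. The conditions did not overlap, and the replicates lay close together. *CHGA* rose to 129 ± 10.3 CPM from 49.1 ± 0.798 CPM (SD, n = 2 each), and its log2 fold change was 1.39 (adjusted p = 0.0449 by edgeR's quasi-likelihood test, standard error, SE, 0.0985). *CHGA* was the 1 gene of the set with an adjusted p under 0.05, a rule that 0.283% of all tested genes passed in the higher direction. That adjusted p was above 0.05 whichever library was left out (0.149 and 0.139 without vector control replicates 1 and 2, 0.106 and 0.0810 without OE replicates 1 and 2), and 0.0641 on 1 transcript per gene.

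*CHGB* (ENSG00000089199.5) encodes chromogranin B, a second major matrix protein of dense-core vesicles, and lies on chromosome 20 from 5892156 to 5905999 on the plus strand. Counts of 1074 and 1059 with the vector stood against 2093 and 2573 with OE, again without overlap. The level of *CHGB* was 45.6 ± 0.745 CPM (SD, n = 2) against 86.2 ± 3.92 CPM (SD, n = 2). Its log2 fold change was 0.92 (adjusted p = 0.0629 by edgeR's test, SE 0.0890).

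*SCG3* (ENSG00000104112.4) encodes secretogranin III, which binds chromogranin A and helps to sort it to the vesicle membrane. It lies on chromosome 15 from 51973689 to 52013223 on the plus strand. *SCG3* had 405 and 339 counts with the vector and 863 and 892 with OE. Both OE libraries were above both controls, at 32.6 ± 2.51 CPM (SD, n = 2) against 15.9 ± 2.10 CPM (SD, n = 2). The log2 fold change of *SCG3* was 1.04 (adjusted p = 0.0875 by edgeR's test, SE 0.150).

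*VGF* (ENSG00000128564.5) encodes a granin-like precursor of several secreted peptides that is induced by neurotrophins in neurons. It lies on chromosome 7 from 100805790 to 100808850 on the minus strand. Counts of *VGF* were 10248 and 11378 in the vector control and 16997 and 19066 in OE. The conditions did not overlap, with 462 ± 31.2 CPM (SD, n = 2) in the control and 668 ± 12.9 CPM (SD, n = 2) in OE. The log2 fold change of *VGF* was 0.53 (adjusted p = 0.0779 by edgeR's test, SE 0.0681), with a 95% confidence interval from 0.34 to 0.73.

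*SCG2* (ENSG00000171951.4) encodes secretogranin II, the precursor of secretoneurin, and lies on chromosome 2 from 224461658 to 224467079 on the minus strand. It had 16378 and 16114 counts with the vector and 17603 and 20642 with OE. On the CPM scale the 4 libraries overlapped, with 703 and 686 CPM in the control and 702 and 714 CPM in OE. The log2 fold change of *SCG2* was 0.03 (adjusted p = 0.776 by edgeR's test, SE 0.0437), and its 95% confidence interval ran from -0.10 to 0.15, below the intervals of the other 4 granins.

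**Figure D2:**
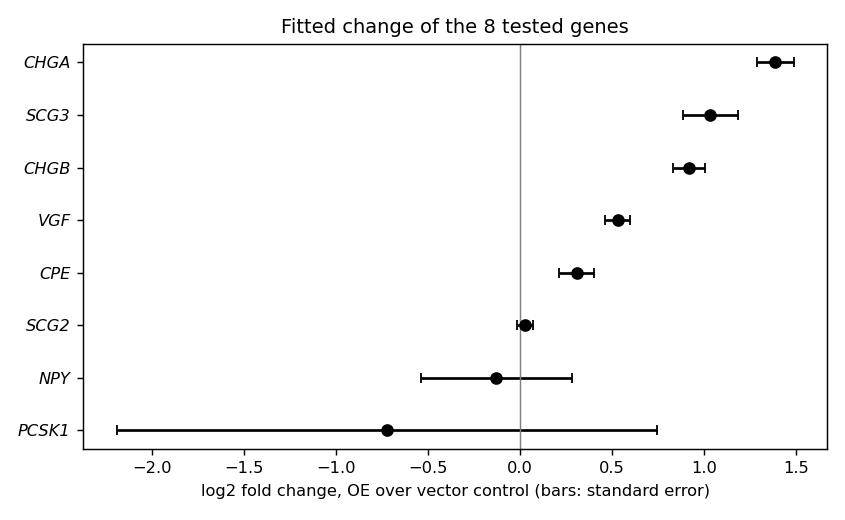
Log2 fold change of RP5-998N21.4 OE over vector control (horizontal axis) with its standard error (bars) for the 8 tested genes, ordered by size. CHGA is at 1.39, SCG3 at 1.04, CHGB at 0.92, VGF at 0.53, CPE at 0.31 and SCG2 at 0.03, while the bars of NPY and PCSK1 cross 0 widely.

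The ratio of 2 genes within a library does not depend on the scaling of libraries. Per 100 counts of *SCG2* there were 7.06 and 7.08 counts of *CHGA* with the vector and 19.4 and 17.0 with OE. For *CHGB* the ratios were 6.56 and 6.57 in the control and 11.9 and 12.5 in OE. *SCG3* went from 2.47 and 2.10 to 4.90 and 4.32 counts per 100 counts of *SCG2*. *VGF* went from 62.6 and 70.6 to 96.6 and 92.4. In each of the 4 ratios both OE libraries lay above both controls. The ratios share *SCG2* as their denominator and were not tested, and they restate the levels of the 4 genes on a scale within the library.

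Summed over the 5 granins, the level was 1257 and 1278 CPM in the vector control and 1633 and 1614 CPM in OE. Of the summed difference of 356 CPM, *VGF* held 57.9%, *CHGA* 22.4% and *CHGB* 11.4%, whereas *SCG3* held 4.69% and *SCG2* 3.65%. The gene with the largest fold was therefore not the one that added most transcripts. *SCG2* made up 56.0% and 53.7% of granin counts in the control and 43.0% and 44.2% in OE, and *CHGA* made up 3.95% and 3.80% against 8.33% and 7.52%.

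**Figure D3:**
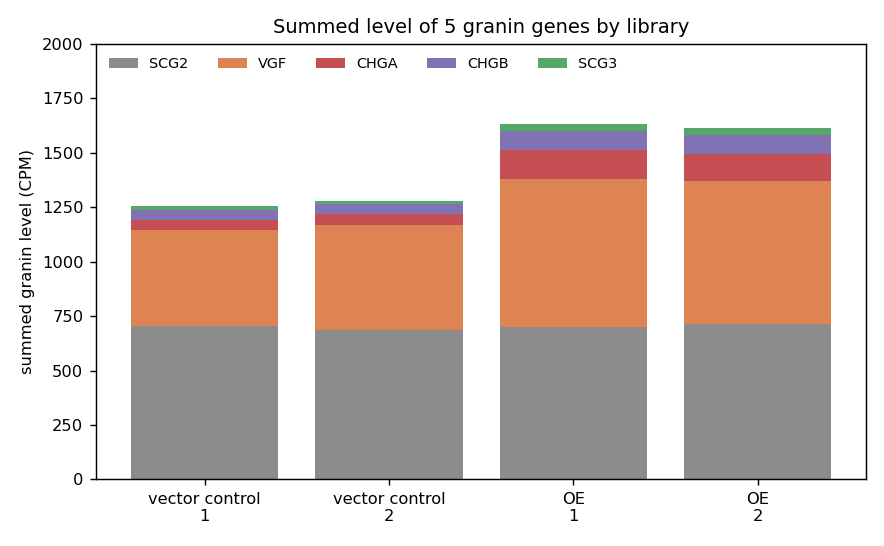
Summed level of the 5 granin genes in CPM (vertical axis from 0) in each library, with each gene as a segment of the bar. The SCG2 segment is alike in the 4 bars, the VGF, CHGA, CHGB and SCG3 segments are taller in both OE bars, and the sums are 1257 and 1278 CPM in the vector control and 1633 and 1614 CPM in OE.

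Levels of different genes were compared per kilobase of the transcript that held most of the reads of each gene. In the vector control *SCG2* was at 285 ± 5.10 CPM per kilobase (SD, n = 2), rank 206 of 19123 tested genes with a known transcript length, and *VGF* was at 181 ± 12.2, rank 344. *CPE* was at 35.2 ± 2.70, *CHGA* at 24.7 ± 0.402 and *CHGB* at 18.5 ± 0.303 CPM per kilobase (SD, n = 2). *SCG3* was at 5.03 ± 0.664, *NPY* at 1.78 ± 0.470, *GAL* at 0.114 ± 0.161 and *PCSK1* at 0.0750 ± 0.0240 CPM per kilobase (SD, n = 2). Except for *GAL* and *PCSK1*, neighbours in this order were separated by more than their SDs in the control. In OE *CHGA* was at 64.8 ± 5.19 CPM per kilobase (SD, n = 2) and stood above *CPE* at 43.5 ± 1.04 (SD, n = 2), the reverse of their order in the control. The rank of *CHGA* went from 3175 to 1060, that of *CHGB* from 4240 to 2126 and that of *SCG3* from 10133 to 6794, while *SCG2* stayed among the most abundant genes, at rank 181.

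*CPE* (ENSG00000109472.9, chromosome 4 from 166282346 to 166419699, plus strand) was the single processing enzyme of the set that was well expressed. It had 1999 and 2249 counts with the vector and 2869 and 3197 with OE, which is 90.8 ± 6.98 CPM (SD, n = 2) against 112 ± 2.69 CPM (SD, n = 2). The conditions did not overlap, but the difference was small, with a log2 fold change of 0.31 (adjusted p = 0.204 by edgeR's test, SE 0.0941) and a 95% confidence interval from 0.04 to 0.58.

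The 2 neuroendocrine convertases were nearly or wholly undetected. *PCSK1* (ENSG00000175426.6, chromosome 5 from 95726037 to 95769847, minus strand), which encodes the convertase that makes the first cuts in many precursors, had 11 and 7 counts with the vector and 12 and 0 with OE. The 0 allows up to 3 counts, or 0.104 CPM. Its log2 fold change of -0.72 has a standard error of 1.47 and an adjusted p of 0.822 in edgeR's test, so that neither a rise nor a fall was detectable at this depth. *PCSK2* (ENSG00000125851.5, chromosome 20 from 17206752 to 17465223, plus strand) had 0 counts in all 4 libraries over its 5 listed transcripts, which allows up to 0.104 to 0.129 CPM per library, and did not enter the test. Such limits reflect the error of counting alone, as PCR copies of a molecule were not marked.

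The peptide precursors were low. *NPY* (ENSG00000122585.3, chromosome 7 from 24323807 to 24331481, plus strand), a cotransmitter of sympathetic neurons, had 19 and 28 counts with the vector and 28 and 21 with OE. The libraries overlapped, at 1.00 ± 0.266 CPM (SD, n = 2) against 0.921 ± 0.276 CPM (SD, n = 2). The log2 fold change of *NPY* was -0.13, with a 95% confidence interval from -1.30 to 1.05 (adjusted p = 0.892 from edgeR's test). *GAL* (ENSG00000069482.6, chromosome 11 from 68451247 to 68458643, plus strand), which encodes galanin, had 0 and 4 counts with the vector and 10 and 11 with OE. These counts were too low for the filter, and *GAL* was not tested.

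No other gene of the annotation has exons on those of the 9 genes with counts, and no pseudogene carries their names. Their reads were placed on 1 main transcript in most cases. *SCG2*, *SCG3* and *CPE* had reads on 1 listed transcript each, and the main transcripts of *CHGA* and *CHGB* held from 97.5% to 99.4% and from 98.3% to 100% of the counts. *VGF* was the exception. In vector control replicate 1 all 10248 counts were on ENST00000249330.2, but in replicate 2 only 273 of 11378 were, and ENST00000445482.2 held 97.6%. In the OE libraries ENST00000249330.2 held 95.2% and 100% of the counts. These 2 transcripts share 2348 exonic bases, 92.0% of the first and 94.8% of the second. The sum over both transcripts differed little between the control libraries, whereas a count of the first transcript alone gave *VGF* a log2 fold change of 1.53. *NPY* showed the same kind of split, with all 19 reads of vector control replicate 1 on ENST00000242152.2 and all reads of the other 3 libraries on ENST00000405982.1.

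**Figure D4:**
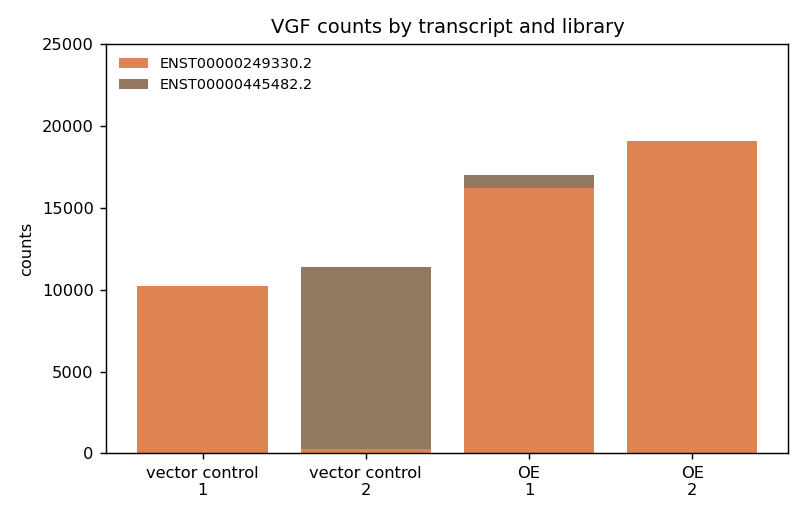
Counts of VGF (vertical axis from 0) in each library, split by the 2 listed transcripts. The total is 10248 and 11378 in the vector control and 16997 and 19066 in OE, and 97.6% of the counts of vector control replicate 2 were placed on ENST00000445482.2, against 0% to 4.76% in the other libraries.

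Other processing enzymes and chaperones of prohormones were mixed. Of the 26 listed genes, 23 were tested. At p under 0.05 in edgeR's test before adjustment 3 were higher and 7 lower, against 10.1% and 10.7% of all tested genes. The list had a median log2 fold change of -0.11 against 0.01 for all tested genes. In edgeR's test 0 of its genes had an adjusted p under 0.05. DESeq2 called 0 as higher and 3 as lower at the thresholds of the study, against 4.35% and 4.42% of all tested genes. *FURIN*, the convertase of the constitutive secretory pathway, had 3826 and 4168 counts with the vector and 2474 and 3046 with OE (log2 fold change -0.74, adjusted p = 0.0707, SE 0.0855). There were 191 and 185 counts of *FURIN* per 100 counts of *CPE* in the control and 86.2 and 95.3 in OE. *DPP4*, a cell surface peptidase that cuts neuropeptide Y, was at 10.3 ± 0.811 CPM against 4.57 ± 0.379 CPM (SD, n = 2; log2 fold change -1.17, adjusted p = 0.0800 from edgeR's test). *ENPEP*, aminopeptidase A, was at 1.41 ± 0.190 CPM against 2.31 ± 0.337 CPM (SD, n = 2).

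Helpers with direct partners in the set were read as well, named here for their role after their values were seen. *PCSK1N*, which encodes the convertase inhibitor proSAAS, had 694 and 834 counts with the vector and 984 and 1191 with OE (log2 fold change 0.30, adjusted p = 0.303 from edgeR's test). *SCG5*, which encodes the chaperone of PCSK2, had 290 and 357 counts against 403 and 435 (log2 fold change 0.17, adjusted p = 0.597). *SCG5* thus had counts in every library while *PCSK2* had none. *PAM*, the enzyme that amidates peptides such as neuropeptide Y, was at 454 ± 92.0 CPM in the control and 321 ± 17.5 CPM in OE (SD, n = 2; log2 fold change -0.50, adjusted p = 0.222 from edgeR's test). With each library left out the log2 fold change was between -0.70 and -0.28 for *PAM*. For *PCSK1N* it was then between 0.17 and 0.43, and for *SCG5* between 0.0273 and 0.315.

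Genes of dense-core vesicle formation and release were mixed. At p under 0.05 in edgeR's test before adjustment 4 of 26 tested genes were higher and 4 lower, against 10.1% and 10.7% of all tested genes. Of this list 0 genes had an adjusted p under 0.05, and their median log2 fold change was 0.10. DESeq2 called 4 of them as higher and 1 as lower at the thresholds of the study, against 4.35% and 4.42% of all tested genes. The gene called lower was *RAB27B*, named after its values were seen. It had 1750 and 1527 counts in the control and 894 and 1047 in OE (log2 fold change -0.96, adjusted p = 0.0721 from edgeR's test). *KIF1A*, the kinesin that carries dense-core vesicles along axons, was at 32.2 ± 2.54 CPM in the vector control and 78.7 ± 1.26 CPM in OE (SD, n = 2; log2 fold change 1.29, adjusted p = 0.0521). *ICA1*, an islet cell autoantigen found on secretory granules, was at 10.4 ± 1.67 CPM against 28.7 ± 2.02 CPM (SD, n = 2; log2 fold change 1.47, adjusted p = 0.0707 from edgeR's test). *CYB561*, a cytochrome of the granule membrane, had 209 and 230 counts in the control and 338 and 7246 counts in OE, so that its log2 fold change of 3.81 rested on OE replicate 2 and was 0.52 without that library.

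Many other peptide precursors were low or without counts. Of the 49 listed precursors 21 had no count in any library and 19 were tested, with a median log2 fold change of 0.12. At p under 0.05 in edgeR's test before adjustment 5 were higher and 2 lower, against 10.1% and 10.7% of all tested genes. The 2 lower genes, named after their values were seen, were *STC1* (log2 fold change -1.25) and *NTS* (-3.65). *NTS* had 31 and 16 counts in the control and 4 and 0 in OE. *STC2*, a secreted glycoprotein hormone, rose to 82.1 ± 6.89 CPM from 18.8 ± 0.755 CPM (SD, n = 2; log2 fold change 2.12, adjusted p = 0.0321 from edgeR's test). *ADM2*, a member of the calcitonin peptide family, rose to 57.7 ± 1.26 CPM from 17.6 ± 1.22 CPM (SD, n = 2; log2 fold change 1.71, adjusted p = 0.0376 from edgeR's test). Both calls were lost with each library left out, where the adjusted p was 0.0667 to 0.107 for *STC2* and 0.0995 to 0.114 for *ADM2*, and on 1 transcript per gene (0.0546 and 0.0550). *CALCB*, which encodes another peptide of that family, had 11 and 18 counts in the control and 94 and 103 in OE (log2 fold change 2.55, adjusted p = 0.0764).

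Few receptors for peptides of the set could be tested. Of 10 listed receptors 8 were in the table and 3 were tested, with a median log2 fold change of 0.32. At p under 0.05 in edgeR's test before adjustment 2 were higher and 0 lower, against 10.1% and 10.7% of all tested genes. These were *C1QBP* and *NPY2R*, a receptor of neuropeptide Y that is named after its values were seen. *NPY2R* had 7 and 11 counts in the control and 25 and 29 in OE (log2 fold change 1.37, adjusted p = 0.196 from edgeR's test). *C1QBP*, reported to bind a peptide of VGF, was at 62.8 ± 3.10 CPM against 78.6 ± 1.84 CPM (SD, n = 2; log2 fold change 0.32, adjusted p = 0.181 from edgeR's test). *C3AR1*, the receptor of complement C3a that also binds a VGF peptide, had 78 and 74 counts with the vector and 25 and 66 with OE (log2 fold change -0.98, adjusted p = 0.333), and its log2 fold change was -0.51 without OE replicate 1 and -1.70 without OE replicate 2.

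**Figure D5:**
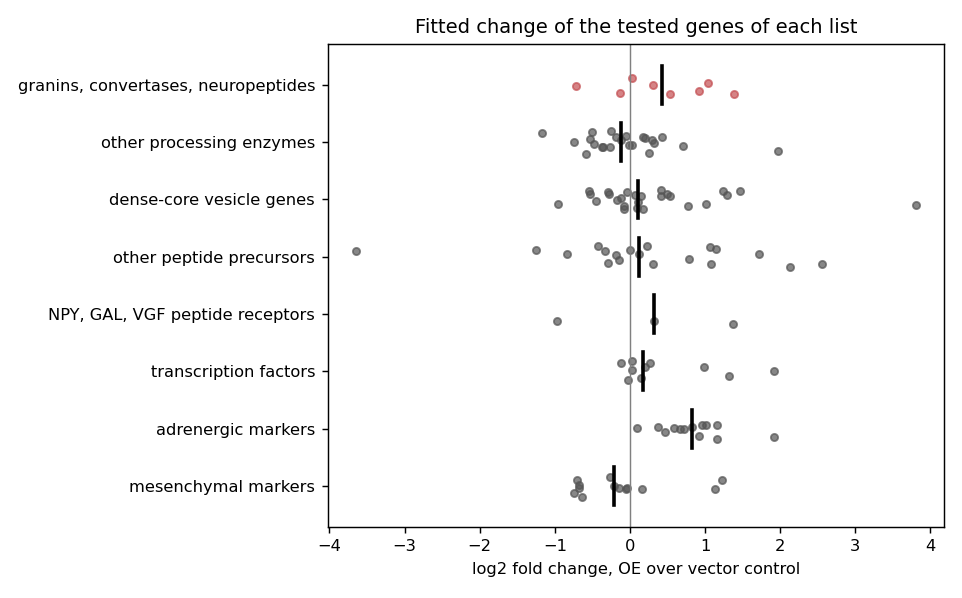
Log2 fold change of RP5-998N21.4 OE over vector control (horizontal axis) for the tested genes of 8 lists (points, spread vertically for display), with the median of each list as a black line. The medians are 0.42 for the granins, convertases and neuropeptides, -0.11 for the other processing enzymes, 0.10 for dense-core vesicle genes, 0.82 for the adrenergic markers and -0.22 for the mesenchymal markers.

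SK-N-SH cultures hold neuroblastic, adrenergic cells and flat, mesenchymal cells, and granins are products of the former. Markers of both states were read beside the granins. Of 13 tested adrenergic markers 11 had both OE libraries above both controls and 0 below, against 27.8% and 27.6% of all tested genes. At p under 0.05 in edgeR's test before adjustment 9 were higher and 0 lower, against 10.1% and 10.7% of all tested genes. After adjustment 1 was higher at p under 0.05, against 0.283% of all tested genes. The median log2 fold change of these markers was 0.82. Their summed level ranged from 838 to 891 CPM in the vector control and from 1296 to 1352 CPM in OE. *PHOX2A*, a homeobox factor of sympathetic neurons, had 330 and 1263 counts in the control and 1880 and 2208 in OE, and its log2 fold change of 1.15 was 2.41 without vector control replicate 2 and 0.49 without replicate 1. *TH*, the first enzyme of catecholamine synthesis and a defining marker, had 0 counts in all 4 libraries.

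Of 13 tested mesenchymal markers 3 had both OE libraries above both controls and 7 below, against 27.8% and 27.6% of all tested genes. At p under 0.05 in edgeR's test before adjustment 1 was higher and 4 lower, against 10.1% and 10.7% of all tested genes. The median log2 fold change of these markers was -0.22. Their summed level ranged from 4319 to 4382 CPM in the control and from 3174 to 4669 CPM in OE. *CD44*, a surface receptor for hyaluronan, was at 589 ± 34.1 CPM against 360 ± 7.49 CPM (SD, n = 2; log2 fold change -0.71, adjusted p = 0.0615). *VIM*, which encodes vimentin, had 31466 and 10869 counts in OE against 8111 and 8217. Its log2 fold change was 1.22 with all libraries, 0.11 without OE replicate 1 and 1.84 without OE replicate 2. *TWIST1* had 7088 and 3351 counts in the control against 3323 and 3864 in OE. Its log2 fold change of -0.75 was -0.11 without vector control replicate 1 and -1.20 without replicate 2. *MEOX2* had 0 counts throughout, and like *TH* and *GFAP* it is named after its values were seen. The part of these markers in the granin values was not tested. Of 8 markers of other tissues, 1 (*GFAP*) was tested, on 6 to 18 counts per library, and 6 had no count.

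Among 12 transcription factors known for neuroendocrine genes, 10 were tested, with a median log2 fold change of 0.17. At p under 0.05 in edgeR's test before adjustment 2 were higher and 0 lower, against 10.1% and 10.7% of all tested genes. *MYT1*, a zinc finger factor of neuronal and endocrine cells, was at 4.98 ± 0.848 CPM against 9.91 ± 1.20 CPM (SD, n = 2; log2 fold change 0.99, adjusted p = 0.128 from edgeR's test). *NEUROD1* had 9 and 35 counts against 52 and 76, and its log2 fold change of 1.32 was 0.65 without vector control replicate 1 and 2.59 without replicate 2. Genes with the CRE were also counted over the whole table. Of the 10796 tested genes with a promoter in the RefSeq table, 391 had the element, and 12.3% of these were higher and 10.5% lower at p under 0.05 in edgeR's test before adjustment, against 10.8% and 12.7% of those without it. Of the 3 genes whose promoters are shown, *CHGA* and *VGF* were higher in both OE libraries, and *PCSK1* overlapped. Their adjusted p-values were 0.0449, 0.0779 and 0.822 in edgeR's test.

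The choice of test decided how many genes were called. Run on the same genes, DESeq2's Wald test called 4 of the 8 tested genes of the set as higher at the thresholds of the study, *CHGA* (adjusted p = 1.5e-38), *CHGB* (4.6e-23), *SCG3* (4.1e-08) and *VGF* (1.5e-12), where it called 4.35% of all tested genes as higher and 4.42% as lower. *CPE* had an adjusted p of 0.00978 in DESeq2 and a log2 fold change of 0.31, under the fold limit. With each library left out in turn, the estimate on the log2 scale was between 1.31 and 1.47 for *CHGA*, between 0.87 and 0.96 for *CHGB*, between 0.90 and 1.17 for *SCG3*, between 0.46 and 0.60 for *VGF* and between 0.23 and 0.38 for *CPE*.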

How the data were processed

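The deposited table gives whole-number counts per Ensembl transcript for each of the 4 libraries, without normalization. According to the study's methods, FastQC served for quality control, Trimmomatic for trimming and Bowtie2 for mapping to hg19. The authors deposited these counts unscaled. The submitters' processing notes also name Bowtie2 2.0.4, Picard 2.21.6 and StringTie 2.1.6. The counting step, its annotation and its use of strand are not given in the sources used here.

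Counts were summed over the 196520 transcripts to 57820 genes. The filterByExpr rule kept 20528 genes, which were scaled by TMM and compared using the quasi-likelihood test of edgeR 4.0.16 in R 4.3.3, with 2 libraries against 2 and no covariates. The standard error (SE) is the log2 fold change divided by the root of the F statistic. The methods of the study name DESeq2, which was an alternative here (version 1.42.0), as was limma-voom (limma 3.58.1). Library totals from 23785164 to 28307591 counts set the precision, and 0 counts allow up to 3. Fits were checked on simulated counts that varied less between libraries than these data, so that the check does not cover their level of noise. The members, lists and tests were chosen with earlier results of these data known.

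Named genes were the 10 members, *RP5-998N21.4*, and from each other list genes with an adjusted p under 0.05 and the 3 largest changes where the mean reached 1 CPM and both OE libraries lay on 1 side of the controls. Positions and lengths came from the GENCODE annotation lifted to GRCh37, promoters from RefSeq (GRCh38.p14).
The alternatives were DESeq2 on the same genes and on genes with 10 or more counts, limma-voom, other scalings, filters and dispersion settings, 1 transcript per gene, a replicate block and leaving out each library. Some genes that the rule names are not reported here.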

Additional observations from a re-analysis of the deposited data

How the results depend on the processing

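At the thresholds of the study, edgeR called 0 genes, DESeq2 called 1800 on the same genes and 1722 on genes with at least 10 counts in total, edgeR called 51 with robust dispersions, 8 with its non-legacy setting, 9 on genes with at least 1 count and 1 on the transcript with the highest mean count of each gene, and an adjusted p under 0.05 alone gave 122. Of the set, 0 genes were called by edgeR, 4 by DESeq2 on either choice of genes and 1 at an adjusted p under 0.05. The median log2 fold change of the tested members was 0.42. It was 0.53 with DESeq2 on genes with at least 10 counts in total and 0.54 with at least 1 count. With a mean of at least 10 counts it was 0.53, and on 1 transcript per gene 0.92. These settings tested 9, 9, 7 and 7 of the members. With each library left out it was between 0.40 and 0.60, the highest without vector control replicate 2. Leaving out a vector control library tested 9 members and leaving out an OE library 8. These medians are therefore not taken over the same genes, and their range is partly one of membership. With the replicate number as a replicate block the median was 0.42, and *CHGA*, *CHGB*, *SCG3* and *VGF* all had an adjusted p of 0.296. The adjusted p under 0.05 of *CHGA*, *STC2* and *ADM2* was lost under the block (0.296, 0.286 and 0.296), with each library left out and on 1 transcript per gene. The deviations of same-numbered libraries had a correlation of -0.0216, and no label pairs them. Signs turned for *PCSK1*, between -6.30 and 0.31 with each library left out, for *NPY*, between -0.46 and 0.16 with each library left out and 0.62 on 1 transcript, and for *C1QBP*, -0.64 on 1 transcript. Depth limits *PCSK1*, *PCSK2*, *NPY* and *GAL*.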
